A study of Mus musculus with 34 samples.

Results

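Sox2 and 7 further genes that the study lists as markers of stem-like osteosarcoma cells (Klf4, Cd44, Cd24a, Cbx3, Abca5, S100a10 and Tert) were followed through cultures and tumours of 1 murine bone tumour line. The genes were picked from the study's table of stem cell markers by symbol, a rule that uses no measured value. All 8 had a row among the 16576 genes of the culture table, and 3 of them (Cd44, Abca5 and Tert) had one among the 12595 genes of the tumour table. The cells were MOSJ-Dkk-1, a mouse osteochondral sarcoma line that carries a lentiviral vector in which the CMV promoter drives secretion of human Dkk-1, an inhibitor of canonical Wnt signalling, together with a red fluorescent label. Every group, controls included, therefore expressed the human transgene. Cultures received no treatment (NT), 5 µM of a vivo morpholino directed at human Dkk-1 (DkkMo) or 5 µM of a mismatched control vivo morpholino (scrMo), which are oligonucleotides that enter cells and block translation of a transcript. They were harvested in log phase after 6 days or under nutritional stress, which was 48 hr at confluence without a change of medium, and 3 libraries were sequenced from each of the 6 groups. Tumours grew after the same cells were injected next to the tibia of NU/J nude mice (Foxn1-/-, which lack mature T cells but keep other leukocytes, 2 months old at injection). The mice were left untreated (NT) or received doxorubicin (DRB), DkkMo or both (combination) by the intraperitoneal route, and 4 fixed specimens of each group were sequenced. No tumour received scrMo, and host stroma is of the same species as the tumour cells, so that host and tumour transcripts could not be separated.

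Sox2 and Klf4 are transcription factors of pluripotent cells, and SOX2 also maintains undifferentiated cells of the osteoblast lineage. Cd44 is the main cell surface receptor for hyaluronan and Cd24a a small lipid-anchored surface glycoprotein, and both are used to sort stem-like cells from solid tumours. S100a10 is the light chain that binds annexin A2 at the membrane, Abca5 is an ATP-binding cassette transporter of intracellular vesicles, Cbx3 (HP1 gamma) reads methylated histone H3 in chromatin, and Tert is the catalytic subunit of telomerase.

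Read depth was between 25.9 M and 44.8 M reads (M, mega) per culture and between 26.9 M and 125 M per tumour. The 10 most abundant genes took 4.77 to 7.74% of reads in cultures but 8.51 to 73.5% in tumours. Libraries of 1 group ranked the genes alike in cultures (Spearman's rho 0.992 to 0.998 across genes), whereas rho was 0.249 to 0.854 in tumours, with the lowest value between a pair of NT tumours. Among 9 genes of the osteochondral lineage, 7 were measured in cultures, and Runx2, Col1a1, Col1a2, Sparc and Sox9 were well above 0, whereas Alpl and Col2a1 had a median of 11.1 normalized counts each and Sp7 and Acan had no row. In tumours all 9 had a row, and median normalized counts were 10959 for Col1a1, 6263 for Alpl and 4002 for Runx2. Medians were lower for Sp7 (313), Col1a2 (131), Sparc (117), Sox9 (103), Acan (48.3) and Col2a1 (15.1, with no read in 5 tumours). The targeted transcript is human and was not analysed here, and mouse Dkk1 had no row in either table, so that knockdown could not be checked in these values.

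The upstream sequence of Sox2, Klf4 and Cd44 is shown for the pluripotency factors and the surface receptor because these windows differ in base composition. Each is the 250 bases before the RefSeq gene start in GRCm38.p6, which for Sox2 lies upstream of the Ensembl start, read 5′ to 3′ on the gene's strand, with capitals marking the GC box (GGGCGG or its reverse complement CCGCCC, the core bound by SP and KLF factors; neighbouring boxes may share a base). The windows are 3:34649745-34649994 on the plus strand for Sox2, 4:55532476-55532725 on the minus strand for Klf4 and 2:102901666-102901915 on the minus strand for Cd44.
Sox2: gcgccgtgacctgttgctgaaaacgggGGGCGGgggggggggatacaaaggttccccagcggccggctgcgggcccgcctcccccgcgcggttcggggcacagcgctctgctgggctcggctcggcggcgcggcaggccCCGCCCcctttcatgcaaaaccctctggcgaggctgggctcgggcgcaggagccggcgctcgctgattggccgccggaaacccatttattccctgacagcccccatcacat
Klf4: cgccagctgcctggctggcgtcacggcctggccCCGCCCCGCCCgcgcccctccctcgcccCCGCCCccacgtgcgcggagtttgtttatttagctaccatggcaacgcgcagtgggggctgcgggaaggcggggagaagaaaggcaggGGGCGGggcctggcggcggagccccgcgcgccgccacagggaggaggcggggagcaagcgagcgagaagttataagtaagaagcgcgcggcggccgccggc
Cd44: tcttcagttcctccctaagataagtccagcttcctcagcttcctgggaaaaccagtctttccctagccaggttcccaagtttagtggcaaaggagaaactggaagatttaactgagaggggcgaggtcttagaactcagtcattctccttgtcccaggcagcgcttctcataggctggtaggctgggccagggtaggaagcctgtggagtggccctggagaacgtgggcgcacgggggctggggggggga

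GC content was 72% for Sox2, 74% for Klf4 and 56.4% for Cd44, against a median of 52.4% over all 32851 RefSeq windows of this length. The Sox2 window held 2 GC boxes, the Klf4 window 4 and the Cd44 window 0, and 32.7% of all windows held at least 1. A core of the TCF/LEF factors that act downstream of Wnt (CTTTGA on either strand, in 13.8% of all windows), the AP-1 site (TGANTCA, 6.75%) and the SOX core (ATTGTT, 9.42%) were searched as well. None of the 7 windows of the 6 genes with a RefSeq window (these 3, Cbx3, Abca5 and Tert) held any of these letters.

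Nutritional stress moved these genes in both directions rather than together. The change was tested with limma on the variance-stabilised log2 scale over all genes, and a gene is said to have risen or fallen where its Benjamini-Hochberg adjusted p was below 0.05. In NT cultures 2 of the 8 genes rose and 4 fell, in scrMo cultures 3 rose and 2 fell, and in DkkMo cultures 2 rose and 3 fell. The stress response was broad. In NT cultures 65.6% of all 16562 genes tested passed (31.5% higher, 34.1% lower), in scrMo cultures 58.8% (28.0% and 30.8%) and in DkkMo cultures 65.6% (30.4% and 35.2%), and the share of the 8 genes that passed was near this background. The median change of the 8 genes was -0.20 in NT, 0.09 in scrMo and 0.04 in DkkMo cultures, against -0.01 for all genes in each. Cd24a rose and Cd44 fell in all 3, though the fall of Cd44 was larger in both morpholino treatments than in NT. Sox2 rose in NT and DkkMo only, S100a10 fell in scrMo and DkkMo only, and Klf4 fell in NT but rose in scrMo.

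**Figure D1:**
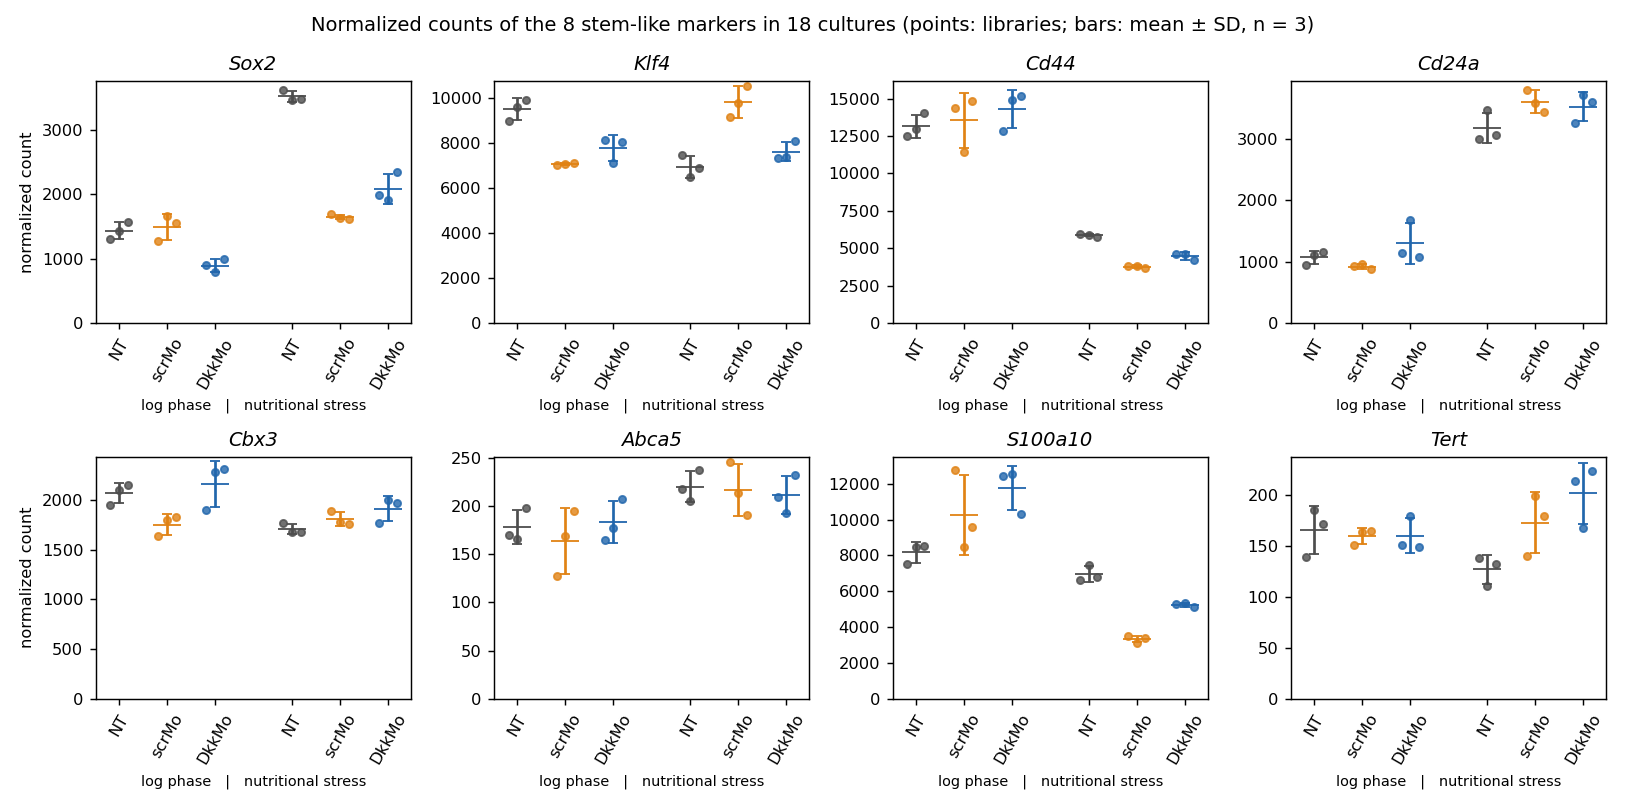
Normalized counts (y axis, reads divided by the size factor of the library) of the 8 genes in the 18 cultures. Points are libraries, bars the mean ± SD of 3 libraries, in log phase on the left and under nutritional stress on the right of each panel for NT, scrMo and DkkMo. Sox2 under stress lay highest in NT (mean 3527) and Cd44 lay lower in all 9 stressed cultures (3645 to 5966) than in all 9 log phase cultures (11401 to 15148).

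Sox2 (GRCm38 3:34650405-34652461, plus strand, a single exon inside the non-coding gene Sox2ot, with which it shares no exonic base) had 1306, 1427 and 1574 normalized counts in the log phase NT libraries and 3625, 3473 and 3483 in the stressed NT libraries. In scrMo cultures it had 1273, 1666 and 1560 in log phase and 1689, 1639 and 1624 under stress. In DkkMo cultures it had 896, 795 and 989 in log phase and 1998, 1911 and 2352 under stress. The log phase and stressed libraries overlapped only in scrMo. Sox2 rose by 1.15 on the variance-stabilised log2 scale in NT cultures (SE 0.083, adjusted p = 3.8e-10) and by 1.02 in DkkMo cultures (SE 0.083, adjusted p = 2.6e-09). In scrMo cultures the difference was 0.12 (95% confidence interval -0.05 to 0.30, adjusted p = 0.208). Group means of normalized counts rose 2.46-fold in NT and 2.34-fold in DkkMo, which is more than on that scale (2.23-fold and 2.03-fold).

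The order of the Sox2 level was stressed NT, stressed DkkMo, then stressed scrMo, log phase scrMo and log phase NT, and last log phase DkkMo. The libraries of log phase scrMo overlapped those of both its neighbours in this order and did not differ from them beyond the spread, while stressed scrMo and log phase NT did not overlap each other. Log phase DkkMo cultures had the lowest Sox2 of all groups, with a difference of -0.61 from scrMo (adjusted p = 4.1e-05) and of -0.56 from NT (adjusted p = 0.00023), and these comparisons share the DkkMo libraries. Under stress Sox2 was again lower in DkkMo than in NT cultures (-0.69, adjusted p = 3.5e-06), but higher than in scrMo by 0.29 (adjusted p = 0.017). That last difference did not pass without stressed DkkMo replicate 3 (0.21, adjusted p = 0.109), without stressed scrMo replicate 2 (0.29, adjusted p = 0.0549) or without stressed scrMo replicate 3 (0.28, adjusted p = 0.0596). The control morpholino also went with a lower level: Sox2 in stressed scrMo cultures was below NT (-0.98, adjusted p = 2.9e-08), whereas in log phase the difference from NT was 0.05 (interval -0.12 to 0.22). The study reported a robust fall of Sox2 transcription with DkkMo in vitro from these same samples, so a lower level here is not independent evidence. Against scrMo the level was lower in log phase (-0.61) but higher under stress (0.29).

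Klf4 (4:55527143-55532466, minus strand) was abundant everywhere and moved in opposite directions in NT and scrMo. It had 8977, 9602 and 9907 normalized counts in log phase NT and 7457, 6477 and 6876 in stressed NT cultures. In scrMo cultures it had 6994, 7052 and 7082 in log phase and 9132, 9754 and 10535 under stress. The libraries of the 2 phases did not overlap in NT or in scrMo. Klf4 fell under stress in NT (log2 -0.44, SE 0.066, adjusted p = 8.9e-06) and rose by 0.46 in scrMo (SE 0.066, adjusted p = 7.7e-06). DkkMo cultures had 8137, 7117 and 8039 in log phase and 7316, 7387 and 8076 under stress, which overlapped, and the difference was -0.03 (interval -0.17 to 0.11).

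Cd44 (2:102811141-102901665, minus strand, 19 exon blocks) showed the largest fall of the 8 genes. Its normalized counts were 12476, 12977 and 14008 in log phase NT, 14363, 11401 and 14847 in log phase scrMo, and 12819, 14919 and 15148 in log phase DkkMo cultures. Under stress they were 5966, 5892 and 5774 in NT, 3840, 3786 and 3645 in scrMo, and 4593, 4628 and 4204 in DkkMo cultures. The log phase groups overlapped each other and each stressed group lay apart from the others. Cd44 changed by -1.12 on the log2 scale in NT, -1.76 in scrMo and -1.61 in DkkMo cultures (SE 0.081 each, largest adjusted p = 4.2e-10). By group means of normalized counts it fell 2.24-fold in NT and 3.19-fold in DkkMo. The fall by group means was largest in scrMo, the mismatch control, from 13537 in log phase to 3757 under stress. The tables give 1 value per gene, so the standard and variant exon isoforms of Cd44 were not distinguished.

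Cd24a (10:43578284-43584265, plus strand) moved the other way. In log phase its normalized counts ran from 950 to 1164 in NT, from 875 to 957 in scrMo and from 1075 to 1683 in DkkMo cultures. Under stress they ran from 3010 to 3472 in NT, from 3438 to 3804 in scrMo and from 3265 to 3725 in DkkMo cultures. All 9 stressed cultures were above all 9 log phase cultures, while neighbouring groups within a phase overlapped. Cd24a rose by 1.36, 1.70 and 1.29 on the variance-stabilised log2 scale in NT, scrMo and DkkMo (SE 0.10 each, largest adjusted p = 1.7e-09). Group means of normalized counts rose 2.97-fold, 3.92-fold and 2.72-fold, which is more than on that scale (2.57-fold, 3.26-fold and 2.45-fold). Over the 18 cultures the levels of Cd24a and Cd44 were inversely related (Pearson's r = -0.948), a description in which the libraries share 6 groups and 2 phases.

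S100a10 (3:93555080-93564643, plus strand) fell under stress in both morpholino treatments. It had 7505, 8495 and 8547 normalized counts in log phase NT and 6622, 7457 and 6808 in stressed NT cultures. In scrMo cultures it had 12752, 8469 and 9588 in log phase and 3507, 3126 and 3361 under stress. In DkkMo cultures it had 12419, 12566 and 10341 in log phase and 5295, 5328 and 5096 under stress. No stressed library reached the log phase libraries of its own treatment. The change was -1.53 in scrMo (adjusted p = 5.9e-10) and -1.12 in DkkMo (adjusted p = 1.9e-08), whereas the NT difference of -0.22 missed the threshold (interval -0.44 to -0.003, adjusted p = 0.0692). Log phase scrMo replicate 1 lay well above its group, and without it S100a10 in log phase was higher in DkkMo than in scrMo by 0.37 (adjusted p = 0.0021), compared with 0.21 (adjusted p = 0.169) with all libraries.

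The remaining genes changed little. Cbx3 (6:51470360-51483704, plus strand) ranged from 1635 to 2313 normalized counts over the 18 cultures. It fell in NT (-0.24, adjusted p = 0.0026) and in DkkMo (-0.15, adjusted p = 0.042), and the difference was 0.04 in scrMo (interval -0.10 to 0.17). With each library centred on its own median the DkkMo change was 0.01 (adjusted p = 0.893) and the NT change -0.08 (adjusted p = 0.255). The DkkMo call was also lost after quantile normalization (-0.08, adjusted p = 0.292), when all other groups were left out of the fit (adjusted p = 0.11) and without log phase DkkMo replicate 2 or 3 or stressed DkkMo replicate 1 or 3 (-0.17 to -0.11, adjusted p = 0.0513 to 0.195). Centring moved the median of all genes by 0.16 in each of these comparisons. The annotation also holds 8 Cbx3 pseudogenes, 2 of them with a culture row, so reads could be split between near-identical copies and the Cbx3 level is uncertain.

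Abca5 (11:110269369-110337716, minus strand) had between 127 and 246 normalized counts, and Tert (13:73626911-73649843, plus strand) between 111 and 224. At these levels the variance-stabilised scale compresses changes. Abca5 rose in scrMo (0.20, adjusted p = 0.0187) and the difference was 0.15 in NT (adjusted p = 0.0616) and 0.10 in DkkMo cultures (adjusted p = 0.20). The Abca5 change in scrMo did not pass without log phase replicate 1 (0.13, adjusted p = 0.131) or without stressed replicate 1 (0.15, adjusted p = 0.0996), nor with all other groups left out of the fit (adjusted p = 0.0591). Tert fell in NT cultures (-0.17, adjusted p = 0.0415), from 139, 186 and 171 to 138, 111 and 133 normalized counts, and the difference was 0.05 in scrMo and 0.16 in DkkMo (adjusted p = 0.0517). The Tert call was lost when log phase NT replicate 2 (-0.13, adjusted p = 0.170) or 3 (-0.15, adjusted p = 0.105) or stressed NT replicate 2 (-0.13, adjusted p = 0.164) or 3 (-0.18, adjusted p = 0.0586) was left out. With each library centred on its median it was -0.01 (adjusted p = 0.905) and after quantile normalization -0.02 (adjusted p = 0.858). The titles of 2 stressed NT libraries carry the same number, so that replicates 2 and 3 of that group are names given in accession order.

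**Figure D2:**
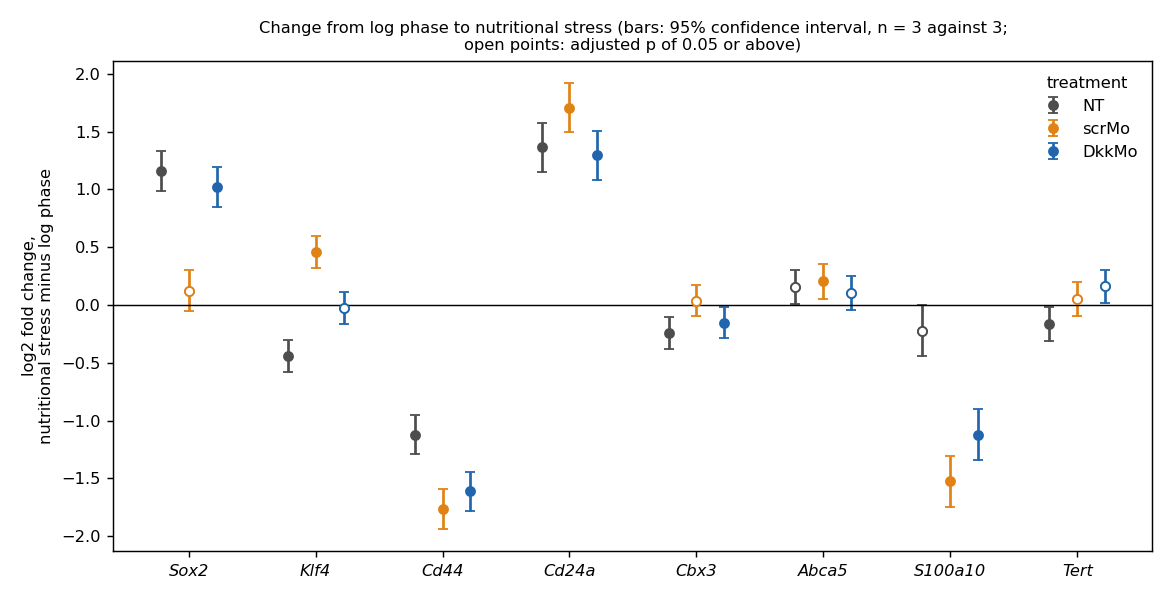
Change from log phase to nutritional stress (y axis, log2 difference on the variance-stabilised scale with its 95% confidence interval) for each of the 8 genes in NT, scrMo and DkkMo cultures. Cd24a lay above 0 and Cd44 below 0 in all 3, Sox2 was near 0 in scrMo only (0.12), and Klf4 was at -0.44 in NT and 0.46 in scrMo.

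Levels can be compared between genes only per length. Per kilobase of exon, group means of normalized counts ran from 2749 to 9716 for S100a10 and from 2275 to 3216 for Klf4. They ran from 554 to 2110 for Cd44, from 434 to 1715 for Sox2 and from 357 to 1400 for Cd24a. Cbx3 lay between 285 and 362, Tert between 22.2 and 35.2 and Abca5 between 14.3 and 19.3. The highest group mean was 3.95 times the lowest for Sox2, 3.92 times for Cd24a, 3.81 times for Cd44 and 3.53 times for S100a10, but 1.59 times or less for Tert, Klf4, Abca5 and Cbx3.

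The morpholino against Dkk-1 is set against its mismatch control by the comparison of DkkMo with scrMo. In log phase Cd24a (0.38, adjusted p = 0.0105) and Cbx3 (0.26, adjusted p = 0.0055) were higher in DkkMo and Sox2 was lower, so that 3 of 8 genes passed where 23.5% of all genes did. The Cd24a difference rested on log phase DkkMo replicate 2, the library at 1683 normalized counts, and was 0.21 (adjusted p = 0.0656) without it. With all other groups left out of the fit neither Cd24a (adjusted p = 0.117) nor Cbx3 (adjusted p = 0.113) passed. Under stress Sox2, Cd44 (0.24, adjusted p = 0.0458) and S100a10 (0.61, adjusted p = 0.00034) were higher in DkkMo and Klf4 was lower (-0.36, adjusted p = 7e-04), against 20.9% of all genes. The Cd44 difference lost its call in each of 5 fits that left out stressed DkkMo replicate 1 or 2 or any stressed scrMo replicate (0.21 to 0.25, adjusted p = 0.0754 to 0.147) and after quantile normalization (0.22, adjusted p = 0.0768).

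Both morpholinos also differed from NT. DkkMo differed from NT in 3 genes in log phase (9.81% of all genes), with Sox2 and Klf4 (-0.28, adjusted p = 0.0091) lower and S100a10 higher (0.51, adjusted p = 0.0038). The Klf4 call was lost without log phase NT replicate 3 (-0.25, adjusted p = 0.0603) and when the scrMo and stressed cultures were left out of the fit (adjusted p = 0.064). It differed in 4 genes under stress (41.7%), with Sox2, Cd44 (-0.37) and S100a10 (-0.39) lower and Tert higher (0.31). For scrMo 3 genes differed from NT in log phase (26.4%), namely Klf4 (-0.42), Cbx3 (-0.21) and S100a10 (0.30, adjusted p = 0.0419). The Cbx3 call was lost without log phase NT replicate 2 or 3 or log phase scrMo replicate 1 (adjusted p = 0.0705 to 0.0925), and the S100a10 call without any 1 NT replicate or without scrMo replicate 1 (adjusted p = 0.0658 to 0.238). With all other groups left out of the fit neither passed (adjusted p = 0.051 and 0.146), and Cbx3 did not with centring (-0.16, adjusted p = 0.075). Under stress 5 genes differed between scrMo and NT (46.8%), with Klf4 (0.48) and Tert (0.20, adjusted p = 0.0274) higher and Sox2, Cd44 (-0.61) and S100a10 (-1.003) lower. The last Tert difference did not pass without stressed NT replicate 2 (0.16), stressed scrMo replicate 2 (0.14) or stressed scrMo replicate 3 (0.18), nor with centring (0.16, adjusted p = 0.0671) or quantile normalization (0.12, adjusted p = 0.15). These comparisons use the same NT libraries and are not independent of each other.

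Whether the response to stress differed between treatments was tested as an interaction. Between DkkMo and scrMo it differed for 3 of 8 genes (22.2% of all genes): Sox2 rose by 0.90 more in DkkMo (SE 0.12, adjusted p = 3.2e-05), while the change was lower in DkkMo for Klf4 (-0.49, adjusted p = 0.001) and Cd24a (-0.41, adjusted p = 0.0473). Between DkkMo and NT it differed for Klf4 (0.41), Tert (0.33, adjusted p = 0.0182), Cd44 (-0.49) and S100a10 (-0.90), against 29.1% of all genes, and for Sox2 the difference was -0.13 (interval -0.38 to 0.11). Between scrMo and NT it differed for Sox2 (-1.03, adjusted p = 1.3e-06), Cd44 (-0.64), S100a10 (-1.30), Klf4 (0.90) and Cbx3 (0.28, adjusted p = 0.0166), against 46.0%. The rise of Sox2 under stress was smaller in scrMo than in NT or DkkMo. The interaction of Cd24a lost its call in each of the fits without a stressed DkkMo or scrMo library (-0.45 to -0.36) and without log phase DkkMo replicate 2 (-0.24, adjusted p = 0.107) or log phase scrMo replicate 2 or 3, and also with each library centred on its median (-0.31, adjusted p = 0.1) and when the NT cultures were left out of the fit (adjusted p = 0.0806). That of Cbx3 between scrMo and NT lost it with centring (0.19, adjusted p = 0.103), and that of Cd44 between DkkMo and NT after quantile normalization (-0.33, adjusted p = 0.0592). That of Tert lost it after quantile normalization (0.27, adjusted p = 0.0507) and without log phase NT replicate 2, stressed DkkMo replicate 3 or stressed NT replicate 2 (0.29 in each).

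Shifts in other markers went along with these changes. The summed level of 5 measured macrophage and leukocyte genes of 7 was 1213 to 2165 normalized counts in log phase and 2239 to 2556 under stress, and the pan-leukocyte gene Ptprc had a median of 10.1 normalized counts. Under stress 2 of the 5 rose and 3 fell in NT, 2 rose and 1 fell in scrMo, and 1 rose and 1 fell in DkkMo cultures (medians -0.15, 0.06 and 0.08). Cd68, a lysosomal protein, rose in all 3 treatments (1.37, 0.54 and 0.87 in NT, scrMo and DkkMo), and Cd14, a co-receptor for bacterial lipopolysaccharide, fell in all 3 (-0.48, -0.53 and -0.27). The summed level of the 7 measured osteochondral genes was 33364 to 96967 in log phase and 20029 to 24834 under stress. Of these 7, 3 rose and 3 fell in NT and 2 rose and 3 fell in each morpholino treatment. The collagen genes Col1a1 (-3.20, -1.53 and -3.14) and Col1a2 (-3.74, -1.35 and -2.85) fell, and Runx2, the osteoblast master regulator, rose (1.19, 0.68 and 0.80). The part of these shifts in the results for the 8 genes was not tested.

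The genes whose pattern over the 18 cultures was most like that of Sox2 were sought by Pearson's r among 7867 named genes above the median level, with libraries of 6 groups as points. The closest was Gpr149, an orphan G protein-coupled receptor (r = 0.987), with group means of 940, 924 and 392 normalized counts in log phase NT, scrMo and DkkMo and 3126, 992 and 1269 under stress. Next came Tlk2 (0.970), a kinase of chromatin assembly, Ncbp1 (0.970), a subunit of the nuclear cap-binding complex, the mitochondrial carrier Slc25a38 (0.967) and the helicase Helq (0.966). The most inverse were Ephx1 (-0.980), an epoxide hydrolase that had 6238, 5710 and 9676 in log phase and 2497, 6122 and 4582 under stress in the same order, Prcp (-0.972) and Bhlhe40 (-0.963). For Klf4 the closest were Rhob (0.868), Lhfpl2 (0.843) and Mmp11 (0.842). For Cd44 they were Prkca (0.993), Nt5c2 (0.988) and Axl (0.987), and for Cd24a Mpp1 (0.982), Mapkbp1 (0.980) and Abca7 (0.979). For S100a10 they were Capn2 (0.976), Pdlim1 (0.971) and Sdhd (0.966), and for Cbx3 Mef2a (0.937), Atad2 (0.913) and Acsl3 (0.910). For Abca5 they were Scyl2 (0.855), Rock1 (0.855) and Tut4 (0.854), and for Tert Mavs (0.811), Kif7 (0.764) and Zfp113 (0.758). Among the 8 genes themselves Cd44 and S100a10 were the nearest pair (r = 0.908).

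Partners of Sox2 were followed as a list of 20 genes, of which 12 were measured, while Sox1, Sox3, Sall4 and Esrrb were among those without a row. Under stress 7 rose and 1 fell in NT, 5 rose and 3 fell in scrMo, and 8 rose and 3 fell in DkkMo cultures (medians 0.15, 0.06 and 0.27). That is 66.7%, 66.7% and 91.7% of the list passing, against 65.6%, 58.8% and 65.6% of all genes. Fgfr1, a receptor for fibroblast growth factors, rose by 0.89, 0.31 and 0.45 in NT, scrMo and DkkMo. Tfcp2l1, a factor of the naive pluripotent state, rose by 0.30, 0.33 and 0.67. Wwc1, an upstream member of the Hippo pathway, rose by 0.30 in NT and fell in scrMo (-1.16) and DkkMo (-0.54), while Myc had 0.16 in NT, which did not pass, and fell in scrMo (-0.72) and DkkMo (-0.51). In log phase 4 of the 12 were lower in DkkMo than in scrMo (9.20% of all genes were) and none was higher (14.3% of all genes), namely Fgfr1 (-0.24), Myc (-0.32), Tfcp2l1 (-0.29) and Wwc1 (-0.23).

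Of 6 measured genes of 13 in the remaining SOX family, 3 rose and 2 fell in NT, 2 and 1 in scrMo, and 3 and 1 in DkkMo cultures (83.3%, 50% and 66.7% passing, against 65.6%, 58.8% and 65.6% of all genes). Sox4 rose in all 3 treatments (0.65, 0.56 and 0.80) and was lower in log phase DkkMo than scrMo (-0.41), and Sox9, the chondrocyte regulator, rose in NT (0.72) and DkkMo (0.24) with 0.08 in scrMo. Of 13 measured KLF genes, 4 rose and 5 fell in NT, 6 and 3 in scrMo, and 6 and 5 in DkkMo cultures, so that 69.2%, 69.2% and 84.6% passed against 65.6%, 58.8% and 65.6% of all genes. Klf9 (0.83, 1.05 and 1.19) and Klf6 (1.01, 0.41 and 0.67) rose and Klf10, a target of TGF-beta, fell (-0.86, -1.07 and -1.61) in all 3. Klf5 rose in NT (1.58) and in DkkMo (0.27) and fell in scrMo (-0.19).

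Among 15 measured genes of hyaluronan and Cd44 function, 7 fell and 5 rose in NT, 8 fell and 2 rose in scrMo, and 8 fell and 3 rose in DkkMo cultures. The share that passed was 80%, 66.7% and 73.3%, against 65.6%, 58.8% and 65.6% of all genes. Hmmr, the intracellular hyaluronan-binding protein of the mitotic spindle, fell (-2.60, -1.65 and -2.55 in NT, scrMo and DkkMo), as did the proteoglycan versican (Vcan; -2.52, -1.23 and -2.01) and the Cd44 ligand osteopontin (Spp1; -1.60, -0.69 and -1.41). Has2, the main hyaluronan synthase of mesenchymal cells, fell as well (-0.20, -0.83 and -0.83). Ezrin (Ezr), which links the tail of Cd44 to actin, rose by 0.96, 0.69 and 0.62.

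Of 10 measured members of the list of S100 genes, Anxa2 and Ahnak, 6 fell and 2 rose in NT, 7 fell and 1 rose in scrMo, and 8 fell and none rose in DkkMo cultures (medians -0.25, -0.36 and -0.69), where 34.1%, 30.8% and 35.2% of all genes fell. S100a4, the metastasis-associated calcium-binding protein, fell in all 3 treatments (-3.50, -2.65 and -3.36), as did S100a6 (-1.14, -1.53 and -2.01) and S100a11 (-0.61, -1.39 and -1.39). Anxa2, the binding partner of S100a10, fell (-0.24, -1.22 and -1.09), beside -0.22, -1.53 and -1.12 for S100a10. In log phase 6 of the 10 were higher and 1 was lower in DkkMo than in scrMo, where 14.3% and 9.20% of all genes were, and S100a4 was among the higher (0.76).

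Of 15 measured genes of telomerase assembly and telomere protection, 8 fell and 3 rose in NT, 10 fell and 1 rose in scrMo, and 10 fell and 2 rose in DkkMo cultures, so that 73.3%, 73.3% and 80% passed against 65.6%, 58.8% and 65.6% of all genes. The dyskerin gene Dkc1 fell (-0.63, -0.79 and -0.62) and so did the helicase gene Rtel1 (-0.89, -0.57 and -0.80). The shelterin gene Terf2 rose in NT (0.32) and DkkMo (0.12). Of 9 measured heterochromatin genes, 5 rose and 3 fell in NT, 3 and 3 in scrMo, and 4 and 3 in DkkMo cultures (88.9%, 66.7% and 77.8% passing, against 65.6%, 58.8% and 65.6% of all genes). The Cbx3 paralogue Cbx5 fell (-0.67, -0.34 and -0.59) and the H3K9 methyltransferase gene Ehmt1 rose by 0.48, 0.28 and 0.40. Of 10 measured ABCA transporters, 5 rose and 3 fell in NT, 9 rose and none fell in scrMo, and 6 rose and 1 fell in DkkMo cultures (80%, 90% and 70% passing, against 65.6%, 58.8% and 65.6% of all genes), with Abca7 at 1.06, 1.09 and 0.92 and the cholesterol exporter Abca1 at 0.68, 0.46 and 0.62. Of 22 further markers in the study's table, 11 were measured, and under stress 3 rose and 4 fell in NT and in scrMo, and 4 rose and 3 fell in DkkMo cultures. That is 63.6% in each treatment, near the 65.6%, 58.8% and 65.6% of all genes. Between DkkMo and scrMo 2 of the 11 were higher and 2 lower in log phase, and 3 were higher and 1 lower under stress (36.4% passing in each phase, against 23.5% and 20.9% of all genes). Aldh1a1, an aldehyde dehydrogenase widely used to mark stem-like cells, was lower in DkkMo than in scrMo both in log phase (-0.36) and under stress (-0.37). The members of these lists share regulators and are not independent of each other.

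In the tumours the presence of a row followed the genomic span of the gene. Of 16222 culture genes with an annotated span, 6788 (41.8%) also had a tumour row. The share was 5.00% for spans below 5 kb, the class of Sox2 (2.057 kb), and 14.5% for 5 to 10 kb, the class of Klf4, Cd24a and S100a10. It was 30.4% for 10 to 20 kb, the class of Cbx3, 60.5% for 20 to 50 kb, the class of Tert, and 90.1% for 50 to 100 kb, the class of Cd44 and Abca5. Within libraries, reads per gene were related to span with Spearman's rho of 0.302 to 0.481 in tumours and 0.319 to 0.365 in cultures, and to exonic length with rho of 0.111 to 0.401 and 0.401 to 0.458. The 5 genes without a tumour row, Sox2 among them, have no value there and nothing about their level in tumours follows. The 3 genes that have one are those with the longest spans of the 8.

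**Figure D3:**
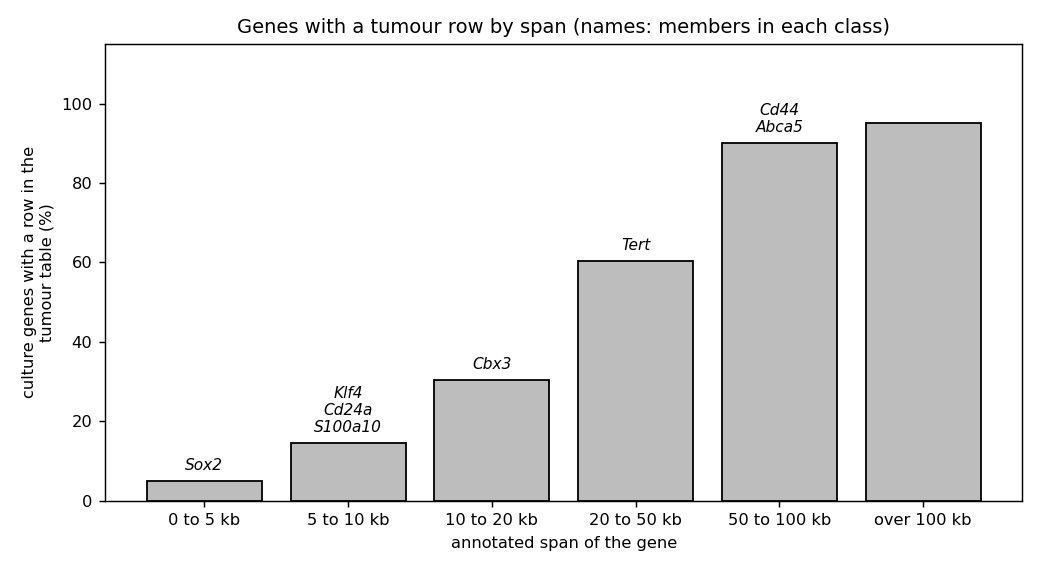
Share of culture genes that also had a row in the tumour table (y axis, %) by annotated genomic span (x axis, classes in kb). The names mark the class of each of the 8 genes, and the share runs from 5.00% in the shortest to 94.99% in the longest class.

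In bulk tumours fewer cells of a type and less RNA per cell cannot be told apart. None of the 3 genes passed in any of 6 tests between tumour groups. The tests of DRB, DkkMo and combination against NT, of combination against DkkMo and of the interaction of DkkMo with DRB called 0% of all 12595 genes with limma, whereas 7.35% passed for combination against DRB. At an unadjusted p below 0.05 there were 1500 genes for DRB, 1554 for DkkMo and 1567 for combination against NT, 150 for combination against DkkMo, 853 for the interaction and 3295 for combination against DRB. A limma-voom fit of the recovered reads called 0 genes in each of the 6, combination against DRB included. The median of all genes also differed between tumour groups, by -0.54 for DkkMo and -0.52 for combination against NT, by 0.28 for DRB against NT and by -0.71 for combination against DRB. Centring each library on its median shifted these medians by between -0.33 and 1.04.

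Tert was the gene with the clearest separation. It had 395.5, 1016, 144 and 658 normalized counts in NT tumours and 2027, 2595, 5751 and 7920 in DRB tumours. Combination tumours had 1304, 3518, 2577 and 1069, and DkkMo tumours 2445, 1644, 235 and 110. All DRB and all combination tumours lay above all NT tumours, for combination by a narrow margin (1069 against 1016). DkkMo tumours overlapped NT, DRB and combination tumours alike. Tert was higher than in NT by 2.76 on the log2 scale in DRB tumours (interval 1.07 to 4.44, adjusted p = 0.197) and by 1.75 in combination tumours (interval 0.07 to 3.44, adjusted p = 0.392), which share the NT controls. In each case an exact two-sided permutation test of this gene alone gave p = 0.0286, the smallest that 4 against 4 tumours allow, among 15 such tests of 3 genes in 5 comparisons. Under centring and under quantile normalization the DRB difference of Tert was 2.43 and 2.44, and that of combination 2.47 and 2.26. The 10 most abundant genes held 46.7 to 73.5% of reads in DRB, 8.51 to 38.7% in NT and 13.5 to 18.6% in combination tumours, and the part of this in the Tert result was not tested. Tert per kilobase of exon stood at the 25.7th to 85.1st percentile of tumour genes over the 16 tumours (median 57.8). Per kilobase of genomic span it stood at the 42.5th to 94.9th (median 80.6), so its rank depends on the length used. Tumour reads per gene were related to span (Spearman's rho 0.302 to 0.481) and to exonic length (0.111 to 0.401). The part of this in the tumour counts of Tert, Abca5 and Cd44 was not tested.

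Abca5 reached its highest values in DRB tumours, which had 6650, 1980, 332 and 208 normalized counts. NT tumours had 301, 123 and 222 and 1 tumour with no read, for which 3 reads would be 3.40 normalized counts. Combination tumours had 157, 4.21, 118 and 123, and DkkMo tumours 376, 138, 11.1 and 1.81, of which the lowest 2 rest on 9 and 2 reads. All combination tumours lay below all DRB tumours (-2.61 on the log2 scale, interval -4.65 to -0.57, adjusted p = 0.101, exact two-sided permutation p = 0.0286 for this gene alone), and DRB overlapped NT (2.41, adjusted p = 0.327). With centring the first difference was -1.57 and with a pseudocount of 1 on log2 normalized counts -4.05. Read depth was 28.3 M to 41.1 M in combination and 85.3 M to 106 M in DRB tumours, and its part in that difference was not tested. Abca5 was lower than in NT by a log2 difference of -0.29 in DkkMo and -0.20 in combination tumours (adjusted p = 0.906 and 0.944), and with centring these were 0.36 and 0.51. DRB replicates 1 and 2, which had the highest Abca5, also had the highest summed level of 4 measured macrophage and leukocyte genes of 7 in that group (198331 and 154253 normalized counts against 28395 and 15201 in replicates 3 and 4). The sum was 9748 to 14325 in DkkMo, 7913 to 10938 in combination and 8164 to 367732 in NT tumours, and its part in these results was not tested. In NT replicate 4, the tumour with the highest sum, Ptprc alone had 352160 normalized counts. Abca5 was 222 in that tumour, below the 301 of NT replicate 1.

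Cd44 had 10172, 7932, 18430 and 46674 normalized counts in NT tumours and 11800, 3213, 8564 and 2408 in DRB tumours. DkkMo tumours had 8205, 9196, 10996 and 8725, and combination tumours 6124, 23608, 6892 and 7324. The groups overlapped in every comparison. Cd44 differed from NT by -1.59 in DRB (interval -2.84 to -0.33, adjusted p = 0.291), by -0.81 in DkkMo (adjusted p = 0.554) and by -0.80 in combination tumours (adjusted p = 0.551), and the last 2 became 0.07 and 0.04 after quantile normalization. For combination against DRB the difference was 0.78 (adjusted p = 0.421), and after quantile normalization 1.76 (adjusted p = 0.0446). The NT tumour with the highest Cd44, replicate 4, also had the highest sums of macrophage and leukocyte genes (367732), of 5 endothelial genes (193754) and of 9 osteochondral genes (74842) among NT tumours, and their part was not tested. Ptprc alone held 352160 of the first sum and Pecam1 189148 of the second.

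**Figure D4:**
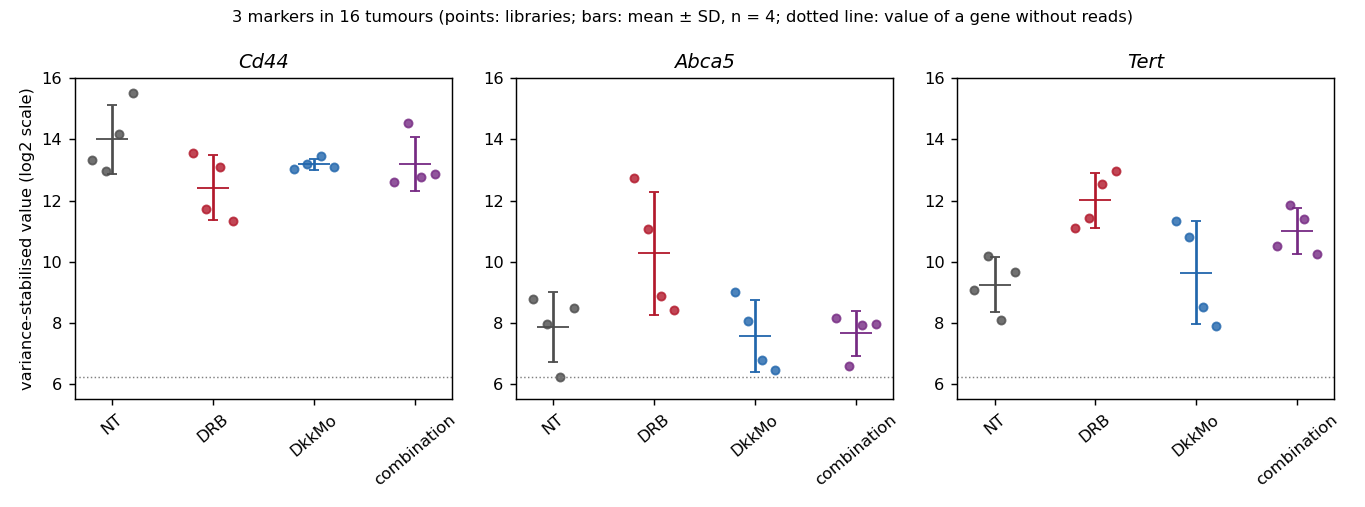
Variance-stabilised values (y axis, log2 scale) of Cd44, Abca5 and Tert in the 16 tumours. Points are tumours, bars the mean ± SD of 4, and the dotted line marks the value of a gene without reads (6.23). Tert in DRB (11.09 to 12.98) and combination tumours (10.25 to 11.84) lay above NT (8.09 to 10.18), and Cd44 groups overlapped.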

How the data were processed

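The authors aligned reads with HISAT2 2.1.0 to GRCm38 (Ensembl 98), sorted them with SAMtools 1.9, counted them per gene with featureCounts (Subread 2.0.0) and deposited DESeq2 variance-stabilised log2 values, transformed separately for 18 cultures and 16 tumours, so that no level was compared between the tables. The transformation was inverted to normalized counts (reads divided by the size factor) and to reads, of which at least 99.9% were whole within 0.05. A set of 14 odd rows at the end of the culture table, which spanned more than 6 within a group and held none of the 8 genes, were set aside.

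Groups were compared with limma 3.58.1 in R 4.3.3 on the deposited log2 values, with a mean for each group, all libraries of a set in 1 model, a variance trend and Benjamini-Hochberg adjustment over all genes seen in at least 3 cultures or 4 tumours. Fits were tested on simulated data. Exact two-sided permutation tests cannot go below p = 0.1 for 3 against 3 libraries. Since the labels do not say whether replicates were separate cultures, p-values measure the spread between these libraries, which may be technical. Alternatives were pseudocounts of 0.5 and 1 on log2 normalized counts, limma-voom on recovered reads with the size factors (chosen after seeing the data, in place of TMM scaling), centring, quantile normalization, no filter, fewer genes or groups, no trend, a 1.5-fold minimum, a replicate block and each library left out.

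The 8 genes were named throughout, with the 3 closest genes for each by Pearson's r (5 and the 3 most inverse for Sox2) and members of gene lists, and although the rule for the 8 genes used no measured value, the genes and the lists were chosen with earlier results of these data known. Promoters came from RefSeq (GRCm38.p6), gene positions from the GRCm38 annotation. Python 3.11.15, pandas 2.3.3 and SciPy 1.17.1 were used. Precision is limited by 3 or 4 libraries per group, and intervals cover the spread between libraries only.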

Additional observations from a re-analysis of the deposited data

Results flagged for a closer look

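In the combination tumours replicate 2 stood apart for both Cd44, where it was the highest (14.54 on the variance-stabilised scale, gap over range 0.869), and Abca5, where it was the lowest (6.57, gap over range 0.856), both above the critical value of Dixon's test for 4 samples. Of 12 groups of 4 tumours tested in this way, chance alone gives such a value in about 1 in 20.

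The change from log phase to nutritional stress differed between treatments by an interaction test for 12 gene and treatment pairs. For Sox2 it differed by 0.90 between DkkMo and scrMo and by -1.03 between scrMo and NT. For Klf4 the differences were -0.49 between DkkMo and scrMo, 0.41 between DkkMo and NT and 0.90 between scrMo and NT. For Cd44 they were -0.49 between DkkMo and NT and -0.64 between scrMo and NT, and for S100a10 -0.90 and -1.30 in the same order. Cd24a differed by -0.41 between DkkMo and scrMo, Cbx3 by 0.28 between scrMo and NT and Tert by 0.33 between DkkMo and NT. All are log2 differences, and comparisons with the same treatment share its libraries.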

How the results depend on the processing

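Of 1656 recomputed values of the 8 genes in cultures, 1510 were counted as unchanged, 63 no longer passed and 40 newly passed. Of 324 in tumours 317 were counted as unchanged and 1 newly passed. Unchanged values passed in the same direction in both fits, or passed in neither and shifted by less than the SD within groups. Among values that passed in neither fit, 42 changed sign in cultures and 25 in tumours. With only the compared groups in the model, 1 gene in place of 3 passed for DkkMo against scrMo and for scrMo against NT in log phase, and 7 in place of 4 for DkkMo against NT under stress. After quantile normalization 2 in place of 4 passed for the interaction between DkkMo and NT, and Cd44 (1.76) for combination against DRB in tumours, where 1 in place of 0 genes passed. Centring each library on its median took the change of Cbx3 under stress in DkkMo from -0.15, which passed, to 0.010, which did not (adjusted p = 0.893). With a minimum of 1.5-fold on the variance-stabilised scale, 3 genes passed for stress in NT, for stress in scrMo and for scrMo against NT under stress. With this minimum 1 passed for both interactions of DkkMo, for DkkMo against scrMo in either phase and for DkkMo against NT under stress. For either morpholino against NT in log phase 0 passed, although by group means of normalized counts Sox2 was 1.61-fold lower in DkkMo than in NT there. The causes were not tested, apart from the stricter threshold, which is one by construction.

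Over the fits that left out 1 library, the genes passing numbered 2 to 5 for the interaction between DkkMo and scrMo, 1 to 3 for scrMo against NT in log phase and 2 to 3 for DkkMo against scrMo under stress. Over all genes, a model of only the compared groups called 787 in place of 1625 genes for DkkMo against NT, 1109 in place of 3890 for DkkMo against scrMo and 2830 in place of 4365 for scrMo against NT in log phase, and 5648 in place of 3464 for DkkMo against scrMo under stress. In tumours, combination against DRB called 926 genes, 471 after centring, 0 with limma-voom and 1636 with only these groups. The limma-voom fit with TMM scaling was not run, and library size factors of the deposited values, chosen after seeing the data, took its place. The small changes of Abca5 and Tert rest on 111 to 246 normalized counts and depend on depth and scaling.

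Replicate numbers did not pair the cultures consistently. Between same-numbered log phase DkkMo and scrMo libraries, deviations from the group means correlated at -0.0487 to 0.624. The mean correlation was 0.38 there. Deviations cancel within a group, so the mean for libraries of different numbers (-0.18) largely follows from it and is no separate comparison. A shared effect of the replicate between log phase DkkMo and scrMo was not settled. The block used the numbers in the titles, of which 2 stressed NT libraries share one. With the replicate block Abca5 (0.18, adjusted p = 0.0289) newly passed and Tert (-0.16, adjusted p = 0.0525) no longer passed for stress in NT, Cd24a (0.38, adjusted p = 0.0222) newly passed for the interaction between scrMo and NT, and no other call of the 8 genes changed.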
